A study of Mus musculus with 16 samples.

Results

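Oxidative phosphorylation (OXPHOS) genes of the nucleus were followed in NIH3T3 cells, a mouse fibroblast line, through an exposure to bortezomib, a drug that blocks the proteasome. The members were all gene symbols that start with Nduf, Uqcr, Cox4 to Cox8 or Atp5, together with Sdha, Sdhb, Sdhc and Sdhd. This rule found 92 of the 23356 genes in the tables, namely 36 subunits of complex I, 8 factors that assemble it, 4 members of complex II, 8 of complex III, 20 of complex IV and 16 of complex V. The rule reads symbols alone, although it was chosen with earlier results of these data known. All cells stably expressed DD-sfGFP, a destabilizing domain derived from FKBP12 fused to superfolder GFP. The 4 groups were an untreated control at 0 min and cells exposed to bortezomib for 45, 135 or 405 min, each with 4 replicate libraries of total RNA. The dose is not in the labels, and cells given vehicle for the same times were not analysed here, so drug and elapsed time cannot be told apart. Nothing in the labels says that replicates came from separate cultures, and p-values then measure only the spread between these libraries, which may be technical.

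The respiratory chain passes electrons from NADH (complex I) and succinate (complex II) through complex III to complex IV, which reduces oxygen. Complexes I, III and IV pump protons across the inner mitochondrial membrane, and complex V, the ATP synthase, uses the gradient to make ATP. Most subunits are encoded in the nucleus, made in the cytosol and imported, while a core set is encoded in mitochondrial DNA and joins them during assembly. Proliferating fibroblasts make ATP by both glycolysis and respiration.

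Libraries differed in kind, and this set where the time course could be read. The share of fragments in symbols of ribosomal protein genes, 97 symbols of which 10 are S6 kinases caught by the same pattern, separated 7 libraries over 4% from 9 at or under it. The 7 were replicates 1 and 2 at 45 min, replicates 1 and 2 at 135 min, and replicates 1, 3 and 4 at 405 min. They held 1385229 to 19930375 fragments, against 570323 to 1469951 in the 9. The library just inside the threshold was 405 min replicate 3, at 4.25%, and the one just outside was control replicate 2, at 1.21%. No control passed the threshold, so the course has no untreated library of its own. The 10 markers of fibroblasts, such as collagens and fibronectin, summed to between 3500.5 and 21065 CPM (counts scaled to the library total) in the 7, with the lowest sum in 405 min replicate 3, and to between 258 and 1705 in the 9. Epithelial, endothelial, leukocyte and muscle markers, 3 or 4 genes per list, reached at most 78.7 CPM in the 7 and had sums of 46.6 to 279 in the 9. Olfactory and vomeronasal receptor genes, which fibroblasts are not known to use, had a share of 0.00556% to 2.62% in the 7 and of 4.16% to 5.13% in the 9. Their part in the results below was not tested.

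OXPHOS transcripts took a lower share of fragments late in the course than early. At 45 min they made up 1.51% (replicate 1) and 1.73% (replicate 2) of all fragments. The shares were 1.44% and 0.997% by 135 min, then 0.770%, 0.493% and 1.01% in replicates 1, 3 and 4 of the 405 min group. The 45 and 405 min libraries did not overlap, and the 135 min libraries lay below both of the first and reached the highest of the second. Wilson intervals at 95% cover counting error only and were narrow at these depths (0.482% to 0.505% in 405 min replicate 3, the shallowest of the 7). In the 9 other libraries the share was 0.106% to 0.271% whatever the group. In bulk RNA, fewer transcripts per cell and fewer cells that contain them cannot be told apart. A share of fragments also falls where other sequence takes more of the library. Olfactory and vomeronasal receptor genes held 0.00556% and 0.228% at 45 min, and 0.370% and 1.42% at 135 min. At 405 min they held 0.338%, 2.62% and 0.00774% in replicates 1, 3 and 4. The part of this in the OXPHOS shares was not tested.

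Set against ribosomal protein transcripts, which are also short and highly expressed, OXPHOS transcripts stood in almost the same ratio in libraries of one time. There were 18.1 and 18.4 OXPHOS fragments per 100 ribosomal protein fragments at 45 min. At 135 min there were 17.0 and 16.2. At 405 min there were 11.4, 11.6 and 11.8. The 3 times did not overlap, and the mean was 18.2 ± 0.243 (SD, n = 2) at first and 11.6 ± 0.194 (SD, n = 3) at last, although the 405 min libraries ranged in depth from 1385229 to 19930375 fragments. In the 9 libraries at or under 4% the ratio was 19.1 to 30.5. The lowest was that of 405 min replicate 2, and the next that of an untreated library, control replicate 2 (22.4). These also had the highest ribosomal protein shares of the 9 (0.907% and 1.21%), so the low value cannot be set down to time.

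**Figure D1:**
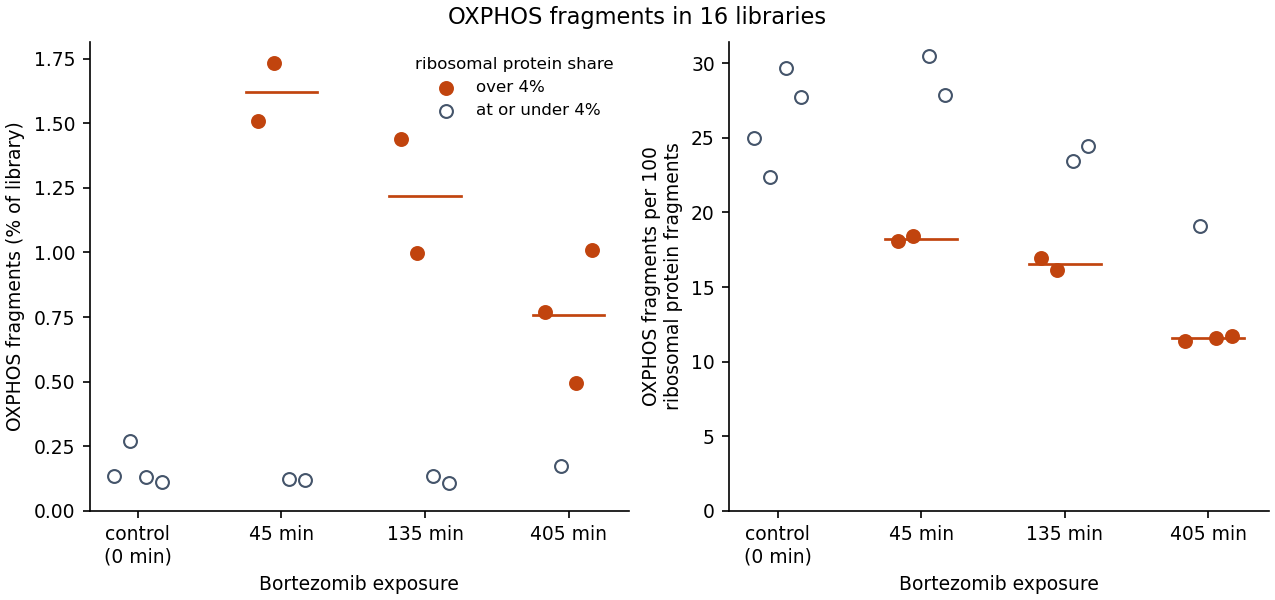
OXPHOS fragments as a percentage of all fragments in the library (left) and per 100 ribosomal protein fragments (right), by time of exposure, with 1 point per library. Filled points are the 7 libraries over 4% ribosomal protein share and their bars are means, and open points are the other 9; at 405 min the filled points lie between 11.4 and 11.8 on the right axis, below the 18.1 and 18.4 of 45 min.

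All 5 complexes had the lower ratio at 405 min. Per 100 ribosomal protein fragments, complex I subunits gave 3.13 to 3.83 at 45 min and 2.12 to 3.09 at 405 min, and complex II gave 0.428 to 0.436 and 0.211 to 0.339. Complex III went from 1.64 to 1.94 at 45 min to 0.927 to 1.11 at 405 min. Complex IV held 6.35 to 7.65 and then 2.98 to 4.11, and complex V held 4.71 to 6.05 and then 2.59 to 4.46. At 135 min complexes I (3.25 to 4.26), IV (5.64 to 7.30) and V (3.69 to 5.08) overlapped their 45 min values. Complexes II (0.315 to 0.413) and III (1.16 to 1.55) lay below theirs at that time. In none of the 5 complexes did a 405 min library reach the lower of the 45 min values. Complex I assembly factors did not follow, with 0.141 to 0.168 at 45 min and 0.151, 0.575 and 0.159 at 405 min (replicates 1, 3 and 4). Their share of all fragments was 0.0102% to 0.0245% in the 7 libraries and 0.0144% to 0.0360% in the other 9. Mitochondrial ribosomal proteins (3.91 to 4.67, then 3.73 to 5.04) and enzymes of the citric acid cycle (2.55 to 2.62, then 1.90 to 3.08) overlapped between the times.

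The ratio did not rest on a few abundant members. Cox7b, Ndufa4, Cox7c, Cox6c and Atp5b had the most fragments on average, and without these 5 the ratio was 12.4 to 12.6 at 45 min and 8.42 to 9.02 at 405 min. It did differ with base composition. Members whose transcripts lie under the median GC content gave 11.0 to 14.2 at 45 min and 5.05 to 8.47 at 405 min, whereas members at or over the median gave 4.15 to 7.03 and 2.75 to 6.25, which overlap.

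Levels between members can be compared in FPKM, the deposited values that divide fragments by transcript length and library size. Over the 7 libraries, the median level of a complex IV subunit, without the 8 isoforms of other tissues, was 213 to 1182 FPKM per library. Complex V subunits (66.4 to 376) and complex III subunits (79.8 to 328) had lower ranges that overlapped it, complex I subunits (20.5 to 116) and complex II subunits (32.7 to 133) lay below it in all libraries, and complex I assembly factors had the lowest, at 2.17 to 15.3. Cox7c, a small subunit of cytochrome c oxidase, had the highest median of all members, at 2818 FPKM with a range of 585 to 8247. Cox6c (2574), Ndufa4 (1766), Uqcrh (1282) and Atp5k (1129) came next by their medians. Their ranges over libraries overlap, so this order is that of the medians alone.

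Of the 92 members, 68 had at least 1 fragment in all 7 libraries and were tested, out of 8605 genes. Those left out were 10 complex I subunits (among them Ndufs3 and Ndufb8), 2 assembly factors, Uqcrc1, 9 members of complex IV and 2 of complex V. All but 1 of the 9 from complex IV (Cox7a2 is the exception) were isoforms known from other tissues: Cox4i2, Cox6a2, Cox6b2, Cox7a1, Cox7b2, Cox8b, Cox8c and Ndufa4l2. None of these 8 exceeded 49 fragments in any of the 7 libraries. That each was at 0 in at least 1 follows from the filter that left it out. In the 9 libraries the highest count of each was 1 to 28 fragments.

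No single member passed the test. With edgeR's quasi-likelihood test and Benjamini-Hochberg adjustment over all 8605 genes, 0 members and 0% of all genes had an adjusted p under 0.05 for 405 against 45 min, and likewise 0% for 135 against 45 min and 0% for 405 against 135 min. DESeq2 also called 0 members in all 3 (0.721%, 0.0349% and 0% of all genes in that order). The biological coefficient of variation was 68.2% with 4 residual degrees of freedom. The smallest adjusted p of a member for 405 against 45 min was 0.690. What follows describes fitted values, and none of the differences is a call.

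The fitted values of most members were lower at 405 min. Against 45 min, 52 of the 68 had a log2 fold change under 0, which is 76.5% against 44.3% of all genes, and their median was -0.66 against 0.14. At an unadjusted p under 0.05, 13 members were lower (4.15% of all genes were) and 0 were higher (3.01% of all genes were). In 28 members every 405 min library lay below both 45 min libraries, a pattern that 14.6% of all genes had, and in 1 member every one lay above (10.5% of all genes). Already at 135 min, 57 of 68 lay under 0 relative to 45 min (53.7% of all genes), with a median of -0.64 against -0.07. In that comparison 20 members had both 135 min libraries below both 45 min libraries (18.3% of all genes), 0 were lower at an unadjusted p under 0.05 (0.36% of all genes), and 0 were higher (1.28%). From 135 to 405 min, 38 of 68 lay under 0 (43% of all genes) with a median of -0.18 against 0.16. Here 7 were lower (1.86% of all genes) and 1 was higher (1.46%) at that level, and 8 did not overlap downward (7.07%). The comparisons share libraries and are not independent of each other.

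At 405 against 45 min, other lists also had most of their tested genes under 0, with the exception of biogenesis regulators. Cytosolic ribosomal proteins had 51 of 77 tested genes under 0 at 405 against 45 min and a median of -0.28. Mitochondrial ribosomal proteins had 41 of 54 and -0.29, citric acid cycle enzymes 12 of 16 and -0.44, and mitochondrial import factors 11 of 15 and -0.36. Glycolytic enzymes had 7 of 13 and -0.40, assembly factors of the chain with other names 14 of 24 and -0.64, and regulators of mitochondrial biogenesis, which include transcription factors and coactivators, 5 of 12 and 0.27. At 135 against 45 min, cytosolic ribosomal proteins had 67 of 77 under 0 and a median of -0.82. Glycolytic enzymes had 12 of 13 and -0.84. Citric acid cycle enzymes had 13 of 16 and -0.47, and mitochondrial ribosomal proteins 43 of 54 and -0.37. Import factors had 12 of 15 and -0.34. Assembly factors with other names had 12 of 24 and -0.05, and biogenesis regulators 5 of 12 and 0.25. Lower values by 135 min were thus not particular to the members. No gene of these lists had an adjusted p under 0.05 in either comparison. From 135 to 405 min, cytosolic ribosomal proteins, which the ratio above was set against, had 28 of 77 under 0 and a median of 0.41. The members had 38 of 68 and -0.18 in that comparison. None of the medians was tested against another.

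**Figure D2:**
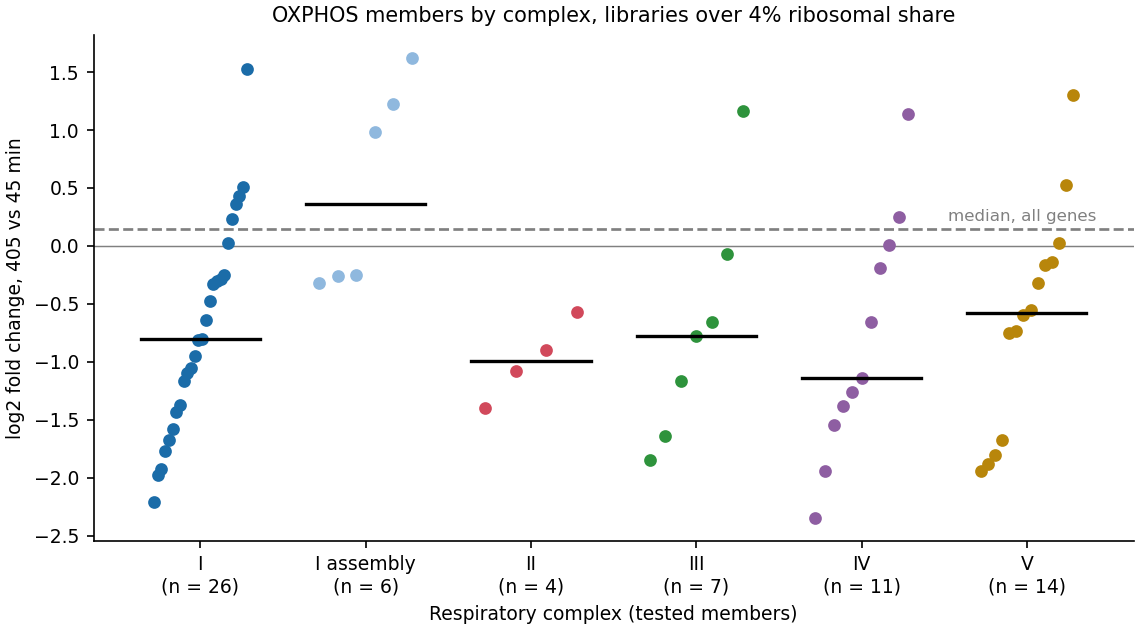
Log2 fold change at 405 against 45 min of the 68 tested members in the 7 libraries over 4% ribosomal protein share, by complex, sorted within each. Bars are medians, the dashed line is the median of all 8605 genes (0.14), and the medians of complexes I to V lie between -1.14 and -0.58.

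The medians of all 5 complexes lay under 0, and none was tested against another. At 405 against 45 min the median log2 fold change was -0.81 for complex I (20 of 26 under 0), -0.99 for complex II (4 of 4), -0.78 for complex III (6 of 7), -1.14 for complex IV (8 of 11) and -0.58 for complex V (11 of 14). Within complex I, subunits of the membrane arm had a median of -0.93 and those of the peripheral arm, which holds the NADH site, -0.56. Within complex V, the F1 part (Atp5a1, Atp5b and Atp5c1) had -0.32 over 3 subunits and the membrane part and peripheral stalk -0.68 over 10. Assembly factors of complex I had 3 of 6 under 0 and a median of 0.36, whereas assembly factors with other names had -0.64. By 135 min complexes III (-1.33), IV (-1.03) and V (-0.69) already had medians near or below their later ones, while complex I stood at -0.37 and complex II at -0.46.

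In complex I, 14 subunits of the membrane arm and 12 of the peripheral arm were tested. Ndufb3, an accessory subunit of the membrane arm, had the lowest value of the complex. It stood at 121 and 336 TMM-scaled CPM at 45 min, at 389 and 61.7 at 135 min, and at 25.2, 73.3 and 50.8 at 405 min (replicates 1, 3 and 4). All 405 min libraries were below the 45 min ones, and the 135 min libraries lay on either side, with a log2 fold change of -2.21 ± 0.83 (SE) from 45 to 405 min. Ndufa1 (-1.98), Ndufc1 (-1.93), Ndufb4 (-1.77), Ndufa6 (-1.67) and Ndufa5 (-1.58), accessory subunits as well, were the other members of complex I with an unadjusted p under 0.05, and none overlapped between the 2 times.

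Core subunits of complex I had values on both sides of 0. Ndufs1, which carries iron-sulfur clusters, had 188 and 322 CPM at 45 min, 376 and 158 by 135 min, and 84.6, 176 and 137 after 405 min. Its log2 fold change was -0.95 ± 0.63, and the 405 min libraries lay below those of 45 min, if only by 188 against 176. For Ndufv1, the subunit that binds NADH, the values were 17.6 and 2.03, then 1.08 and 7.84, then 65.4, 6.80 and 12.5, which overlap. Its fold change of 1.52 ± 1.32 was the highest among the subunits of complex I, and it came to -0.02 without 405 min replicate 1. Ndufv2 (-0.81 ± 0.76), which pairs with Ndufv1, had overlapping times as well. Among assembly factors, Ndufaf5, a hydroxylase that acts on a core subunit, was highest at 1.62 ± 0.90, with 9.59 and 10.3 CPM at 45 min, 49.3 and 19.0 by 135 min, and 18.5, 62.0 and 13.1 after 405 min. It was the 1 tested member in which every 405 min library lay above both 45 min libraries.

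Complex II, the succinate dehydrogenase that also serves the citric acid cycle, had all 4 subunits under 0. Sdhd, a membrane anchor, had 106 and 193 CPM at 45 min, 222 and 43.7 by 135 min, and 43.3, 63.5 and 63.9 after 405 min, a log2 fold change of -1.40 ± 0.70. Sdha, the flavoprotein, had 109 and 121, then 24.8 and 59.6, then 97.0, 5.29 and 59.1, and Sdhb, the iron-sulfur subunit, 80.4 and 118, then 76.3 and 49.4, then 54.9, 34.0 and 69.7. In these 3 genes the 405 min libraries were all below the 45 min libraries. Sdhc, the other anchor, had 85.9 and 31.0, then 73.4 and 23.9, then 38.2, 48.4 and 32.1, so its times overlapped and its value of -0.57 ± 0.69 was the smallest of the 4.

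In complex III, 5 of 7 tested members had all 405 min libraries below both 45 min libraries (14.6% of all genes did), beside 12 of 26 in complex I, 3 of 4 in complex II, 3 of 11 in complex IV and 5 of 14 in complex V. Uqcrh, the hinge protein that contacts cytochrome c1, had 690 and 866 CPM at 45 min, 476 and 427 by 135 min, and 108, 134 and 408 after 405 min, so each later time lay below the one before (log2 fold change -1.84 ± 0.71 from 45 to 405 min). Uqcr10 (-1.64 ± 0.62), Uqcrb (-1.17 ± 0.73), the Rieske protein gene Uqcrfs1 (-0.78 ± 0.59) and the core protein gene Uqcrc2 (-0.66 ± 0.65) were below 45 min in all 3 libraries as well. Uqcr11, a small accessory subunit, went the other way at low level, with 13.4 and 3.69 CPM at 45 min, 0.720 and 3.14 by 135 min, and 31.8, 18.1 and 8.02 after 405 min. Its values at 45 and 405 min overlapped (1.17 ± 1.10), and at 405 against 135 min it was the 1 member that was higher at an unadjusted p under 0.05 (3.27).

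Complex IV held the lowest value of all members. Cox7b, a small subunit, had 471 and 2213 CPM at 45 min, 3365 and 387 by 135 min, and 71.0, 543 and 180 after 405 min. Its log2 fold change was -2.35 ± 1.12, but the times overlapped because 405 min replicate 3 exceeded 45 min replicate 1. The value came to -0.85 without 45 min replicate 2 and to -3.42 without 405 min replicate 3. Ndufa4, named for complex I but a part of complex IV, had 739 and 1763, then 1141 and 492, then 143, 335 and 497, with no overlap and -1.95 ± 0.78. Cox7c (-1.55 ± 0.77) and Cox5a (-1.38 ± 0.65) did not overlap either, and Cox6c (-1.26 ± 0.91) did.

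Cox4i1 and Cox5b, which pack against the catalytic subunits, varied with another split of the libraries. Cox4i1 had 370 and 50.4 CPM at 45 min, 41.0 and 135 by 135 min, and 326, 13.6 and 408 after 405 min, and Cox5b had 163 and 80.5, then 42.8 and 57.8, then 159, 52.1 and 154. Values were high in 45 min replicate 1 and in 405 min replicates 1 and 4, which are the 3 deepest libraries, and low in the other 4. The resulting fold changes were 0.25 ± 1.18 and 0.00 ± 0.64. Cox7a2l, a factor that joins complexes III and IV into supercomplexes, followed the same 3 libraries (65.1, 160 and 134 CPM against 0.756 to 38.8) and had the highest value of the complex, 1.13 ± 1.36.

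The ATP synthase showed both kinds of pattern. Atp5l, a subunit of the membrane part, had 304 and 678 CPM at 45 min, 707 and 282 by 135 min, and 83.5, 119 and 181 after 405 min, with no overlap between 45 and 405 min, a log2 fold change of -1.94 ± 0.69 and the smallest unadjusted p of any member (0.0174, adjusted p = 0.690 by edgeR). Atp5j (-1.88 ± 0.71), Atp5g3 (-1.81 ± 0.72) and Atp5k (-1.67 ± 0.64), also of the membrane part and stalks, did not overlap either. Atp5a1 and Atp5b encode the alpha and beta subunits of the catalytic head. Atp5a1 had 795 and 714, then 446 and 472, then 525, 192 and 639 CPM, all 405 min libraries below those of 45 min (-0.74 ± 0.68). Atp5b had 1327 and 318, then 166 and 518, then 1015, 124 and 1103, high in the same 3 deep libraries as Cox4i1, and its value was -0.14 ± 0.99.

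Subunit c of the ATP synthase, which forms the rotating ring, is made from 3 genes with the same mature protein. Atp5g3 was the most abundant, with 698 and 1331 CPM at 45 min, 894 and 386 by 135 min, and 251, 172 and 448 after 405 min. Atp5g1 had 68.5 and 12.4, then 21.2 and 21.0, then 119, 5.29 and 49.0 (0.53 ± 1.06), and Atp5g2 had 33.2 and 7.94, then 13.7 and 20.6, then 79.1, 44.6 and 29.6 (1.31 ± 0.80). Atp5g3 thus lay lower at 405 min in all libraries, whereas the times overlapped for the other 2 genes. These are values within a library and were not tested against each other.

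**Figure D3:**
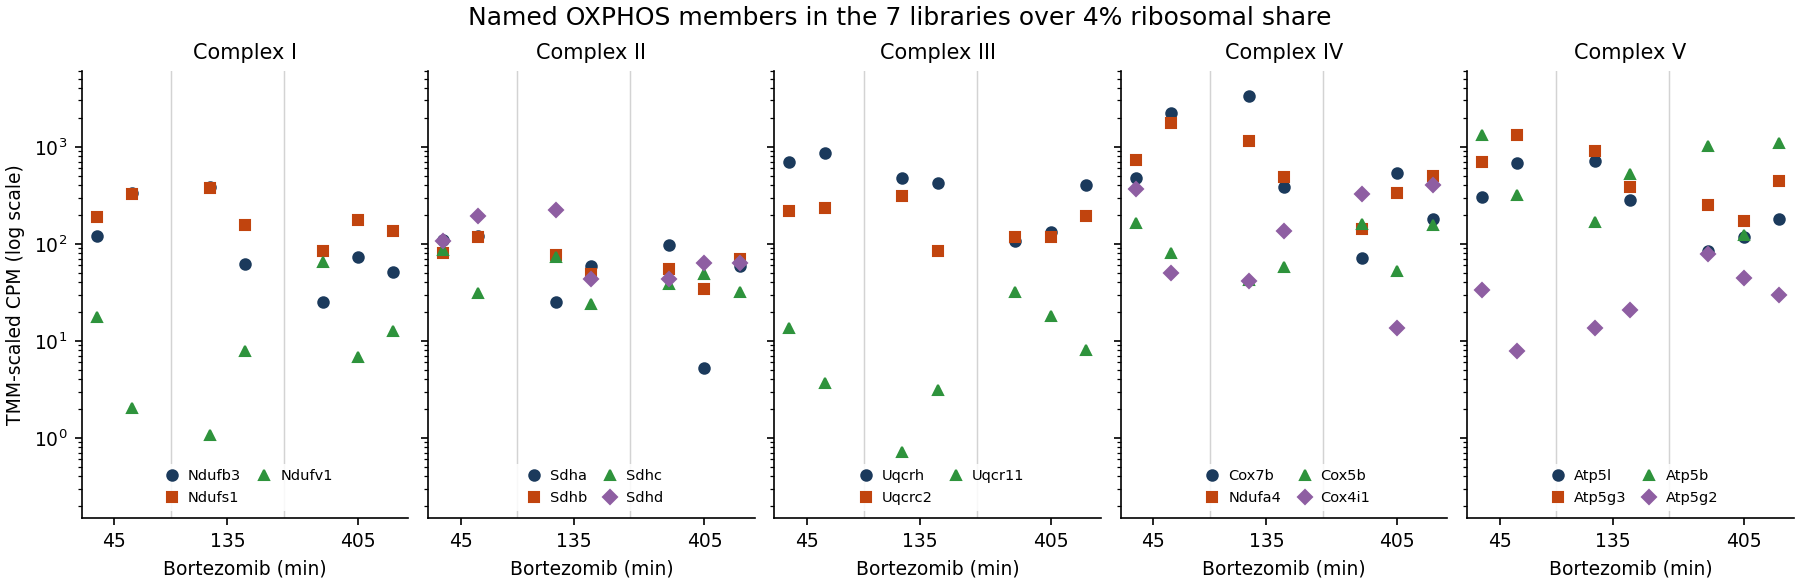
TMM-scaled CPM, on a log scale, of named members of the 5 complexes in the 7 libraries over 4% ribosomal protein share, with 1 marker per library in the order of replicates within each time. Uqcrh, Ndufa4, Atp5l and Atp5g3 lie lower in all 405 min libraries than in both 45 min libraries, whereas Cox4i1 and Atp5b spread widely within a time.

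Members with AT-rich transcripts had the lower values. Across the 65 tested members with an annotated transcript, the log2 fold change at 405 against 45 min had a Spearman correlation of 0.41 with GC content, and across 8009 genes it was 0.34. The genes share the same 7 libraries and are no independent replicates, so these are descriptions. Members were split by GC content at 48.5% and 53.2%. Below the first value 20 of 22 were under 0 with a median of -1.12, between them 19 of 21 with -0.75, and above the second 12 of 22 with -0.18. Other genes in the same ranges had medians of -0.14, 0.22 and 0.71, so in each range members lay below other genes. For 135 against 45 min the order was the reverse, with a correlation of -0.34 over members and -0.01 over all genes. The mean GC content of annotated transcripts, weighted by the fragments of each gene, ranged from 46.6% to 49.4% over the 7 libraries. It reflects which genes held the fragments and was not read from their bases. Its part in these differences was not tested beyond the offsets below.

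**Figure D4:**
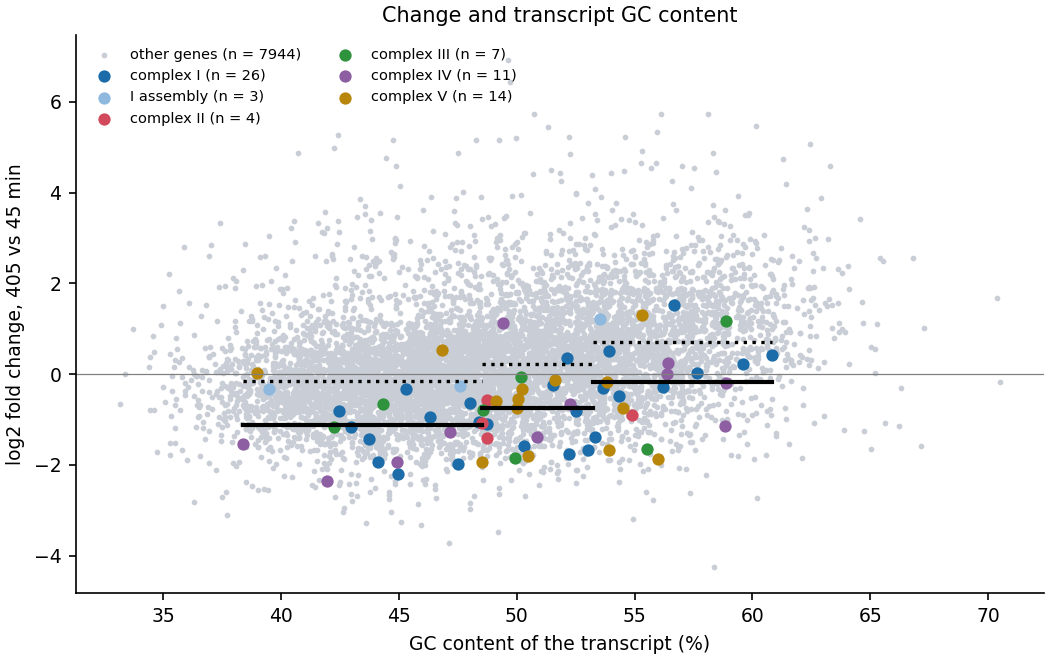
Log2 fold change at 405 against 45 min against GC content of the transcript, for 7944 other genes (grey) and the 65 tested members with an annotated transcript (coloured by complex). Solid bars are medians of the members in 3 ranges of GC content (-1.12, -0.75 and -0.18) and dotted bars those of other genes (-0.14, 0.22 and 0.71).

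Coding sequences of 4 small members are shown as examples of base composition, with G and C in capitals. The correlation above used whole transcripts, not coding bases alone. Cox7b, Uqcrh and Uqcr11 were chosen as extremes of the fold change, so the examples do not test that correlation. Cox7b and Uqcrh had the lowest values of complexes IV and III, Uqcr11 had the highest of complex III, and Cox8a had a value of -0.19. They come from the mm9 annotation (GENCODE M1), where Cox7b lies at chrX:103211039-103217789 on the plus strand in 4 exons, Uqcrh at chr4:115739570-115747676, Uqcr11 at chr10:79865742-79869575 and Cox8a at chr19:7289648-7292106, all on the minus strand. G and C made up 47.3%, 49.6%, 60.2% and 64.8% of these coding bases.
Cox7b: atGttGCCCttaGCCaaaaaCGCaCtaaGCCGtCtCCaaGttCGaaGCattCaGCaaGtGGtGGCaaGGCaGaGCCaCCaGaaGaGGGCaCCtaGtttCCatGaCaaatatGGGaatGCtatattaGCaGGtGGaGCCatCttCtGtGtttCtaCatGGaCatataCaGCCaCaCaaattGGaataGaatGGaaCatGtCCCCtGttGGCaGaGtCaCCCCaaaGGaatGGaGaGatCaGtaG
Uqcrh: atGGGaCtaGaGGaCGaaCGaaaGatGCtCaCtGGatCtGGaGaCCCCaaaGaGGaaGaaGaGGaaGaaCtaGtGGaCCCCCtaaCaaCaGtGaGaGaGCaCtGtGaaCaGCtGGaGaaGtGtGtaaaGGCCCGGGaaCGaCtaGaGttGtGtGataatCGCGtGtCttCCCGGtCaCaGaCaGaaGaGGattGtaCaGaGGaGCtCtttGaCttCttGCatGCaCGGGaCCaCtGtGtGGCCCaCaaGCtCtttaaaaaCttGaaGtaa
Uqcr11: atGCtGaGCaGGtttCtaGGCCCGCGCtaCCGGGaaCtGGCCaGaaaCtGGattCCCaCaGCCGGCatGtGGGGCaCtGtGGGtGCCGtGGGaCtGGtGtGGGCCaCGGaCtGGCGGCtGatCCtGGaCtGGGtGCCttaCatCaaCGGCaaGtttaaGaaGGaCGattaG
Cox8a: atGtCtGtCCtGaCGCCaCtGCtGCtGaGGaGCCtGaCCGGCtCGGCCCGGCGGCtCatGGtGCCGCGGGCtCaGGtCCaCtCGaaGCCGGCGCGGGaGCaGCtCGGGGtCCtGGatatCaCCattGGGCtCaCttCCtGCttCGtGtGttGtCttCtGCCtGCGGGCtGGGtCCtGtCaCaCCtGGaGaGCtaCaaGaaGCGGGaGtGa

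OXPHOS transcripts are short, with a median of 963 bases against 3414 for all tested genes. Over the 65 tested members the log2 fold change had a Spearman correlation of 0.33 with log length. With a trend on GC content removed from each library, the median at 405 against 45 min was -0.75 (55 of 65 under 0) beside 0.13 for all genes. With trends on both GC content and length removed, it was -0.22 (40 of 65) beside 0.13, and cytosolic ribosomal proteins, with a median length of 855 bases, came to 0.42. Between the deepest library of each time, 45 min replicate 1 and 405 min replicate 4, 53 of 68 members had a log2 ratio under 0, with a median of -0.33 beside -0.05 for all genes and 0.23 for cytosolic ribosomal proteins. The order of the complexes differed with these choices. In the pair complex II had the lowest median (-0.80) and complex IV the one nearest to 0 (-0.22), and with both trends removed complex II was again lowest (-0.78), beside -0.37 for complex IV and -0.09 for complex V. In that pair the ratio had a Spearman correlation of 0.05 with GC content over the members. The offsets and the pair were added once values were known.

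Promoters of some members held motifs of factors known for OXPHOS genes. RefSeq (GRCm38.p6) gave a window of 250 bases before to 50 after the start for 76 of the 92 members, 3 of them under an older symbol. Both strands were searched, and the first 2 motifs were shortened to the letters given here after longer forms, found in fewer windows, had been counted. GCGCATG, part of the palindromic site of NRF1, occurred in 15 members (19.7%, against 4.41% of all genes with a window). AAGATGG, from the site of YY1, occurred in 12 (15.8% against 7.28%) and CCGGAAG, a site of ETS factors such as GABP, in 17 (22.4% against 9.93%). The last 3 letters of the ETS motif can be the first 3 of the YY1 motif. At least 1 motif was found in 36 members (47.4% against 19.5%). Tested members with any of them had a median log2 fold change of -0.70 at 405 against 45 min and those with none -0.71. By motif, the medians with and without it were -1.06 and -0.55 for ETS (13 tested members with it). They were -0.88 and -0.70 for YY1 (8 with it) and -0.69 and -0.70 for NRF1 (12 with it). None of these differences was tested. A match describes letters in the window and says nothing of binding.

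Atp5k and Cox6a1 are shown as examples of windows with both NRF1 and ETS motifs, the former read on both strands of a palindrome. The 250 bases before their starts are shown on the minus strand of chromosome 5, with motifs in capitals, from chr5:108434400-108434649 and chr5:115348959-115349208 of GRCm38.p6. The ETS motif of Atp5k lies past the start and is not in the letters shown, and that of Cox6a1 reads as its complement. Both genes had values under 0 at 405 against 45 min (-1.67 and -1.14).
Atp5k: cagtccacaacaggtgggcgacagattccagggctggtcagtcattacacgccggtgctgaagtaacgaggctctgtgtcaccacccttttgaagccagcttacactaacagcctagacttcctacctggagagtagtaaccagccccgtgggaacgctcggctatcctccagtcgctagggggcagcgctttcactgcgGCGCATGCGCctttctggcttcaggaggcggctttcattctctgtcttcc
Cox6a1: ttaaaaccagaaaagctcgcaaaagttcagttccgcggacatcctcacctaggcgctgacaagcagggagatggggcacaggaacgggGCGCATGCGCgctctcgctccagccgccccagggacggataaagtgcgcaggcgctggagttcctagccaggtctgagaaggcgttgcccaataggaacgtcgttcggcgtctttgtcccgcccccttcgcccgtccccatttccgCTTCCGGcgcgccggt

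Against the untreated control, OXPHOS genes could hardly be read. Only 10 members had a fragment in all 16 libraries, out of 5030 genes. By edgeR 0 of them had an adjusted p under 0.05 at any time (0% of all genes in each of the comparisons with 45, 135 and 405 min), whereas DESeq2 called 3, 0 and 3 in that order (9.74%, 0.467% and 13.1% of the genes it gave an adjusted p). It gave one to only 5, 4 and 7 of the 10 members. The called members were Atp5b and Atp5c1 at both 45 and 405 min, Cox7c at 45 min and Cox5b at 405 min. Without adjustment, p was under 0.05 with a higher level for 5 members in the 45 min group (12.1% of all genes), 1 in the 135 min group (7.83%) and 3 in the 405 min group (14.5%). The median log2 fold changes of the 10 were 1.90, 1.40 and 1.97 beside 0.14, 0.16 and 0.11 for all genes. The 5 members were Atp5b (4.01 ± 1.45), Cox7c (4.0 ± 1.51), Atp5c1 (2.98 ± 1.20), Atp5f1 (2.57 ± 1.20) and Cox5b (2.07 ± 0.89), and Cox7c was also the one of the 135 min group. Ndufaf7, an assembly factor, had values of -0.80, -1.12 and -1.20.

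All controls lie in the class at or under 4% ribosomal share, and the treated groups mix both classes. With the log2 of that share as a covariate the medians came to 0.32, -0.13 and 0.08. Within the 9 libraries at or under 4%, 11 members of 8366 genes could be tested at 45 and 135 min, and edgeR gave 0 with an adjusted p under 0.05 in both (0% and 0% of all genes), as did DESeq2 (0% and 1.47%). There the 10 members above, with Ndufs3, had medians of -0.01 and -0.48, and 1 was lower at an unadjusted p under 0.05 at 45 min, Ndufb5 (-2.29 ± 0.99, where 1.94% of all genes were lower). Class and exposure cannot be told apart for 405 min, which has a single library there.

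Counting leaves some members uncertain. In the mm9 annotation, exons of 19 of 89 annotated members overlap another gene, 18 of them on the opposite strand, and the sources used here do not say that strand was used. Atp5j, Cox5a, Cox6c, Uqcrb and Ndufs1 are among them. Deposited counts were not whole in 6 members. Reads of processed pseudogenes, common for short members such as Cox7c, could also be split, and no value here bears on that.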

How the data were processed

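The members, gene lists and tests were chosen with earlier results of these data known. Per the labels, RNA was extracted with RNeasy and libraries were made with a NuGEN Encore Complete kit. The study's methods name mm9 with RefSeq genes and DNAnexus, whereas the submitters' processing notes name mm10, so coordinates printed here are those of the annotation alone. For each library the authors deposited estimated counts, given as raw fragments per gene, together with FPKM. Between 97.9% and 99.4% of counts in a library were whole (tolerance 1e-06), and all were rounded. The 27 symbols that had become dates in 1 file were restored from the shared row order. No 2 of the 120 library pairs were identical.

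Tests were edgeR 4.0.16 quasi-likelihood fits (R 4.3.3, TMM) of genes with at least 1 count in every library of the fit, with Benjamini-Hochberg adjustment at 0.05. CPM are TMM-scaled, and SE is the log2 fold change over the square root of F. GC content and length came from GENCODE M1, with a value for 89 members. Named genes were a panel of core subunits and isoforms plus, as no member passed, the highest and lowest member of each complex, and 1 gene of the panel is not reported here. Ndufa4 and Ndufa4l2 were counted in complex IV. Alternatives were RLE factors, filterByExpr, no filter, DESeq2 1.42.0, thinning, a 6% class, all libraries in 1 fit, a covariate, a replicate block and leaving out each library. The fit of the time course was run on simulated counts, and recovery was required only at a dispersion of 0.05. The common dispersion of that fit in the data was 0.466, so the check does not show power at the spread of these libraries. Replicate numbers were not taken to pair libraries.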

Additional observations from a re-analysis of the deposited data

Results flagged for a closer look

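Of 68 groups of 4 libraries examined (the summed shares, 5 complexes and the 10 members tested in all 16 libraries), 2 held a library far from the other 3 by Dixon's criterion. Chance gives about 1 in 20, or 3.4, where the libraries of a group are of one kind. The 45 and 135 min groups hold 2 libraries of each class and the 405 min group 3 and 1, so that figure does not apply there. OXPHOS genes took 0.271% of fragments in control replicate 2, against 0.111% to 0.135% in the other controls. That library also had the highest ribosomal protein share of the controls (1.21%) and the most fibroblast marker fragments among the 9 libraries at or under 4% (1705 CPM). At 405 min, replicate 2 had 19.1 OXPHOS fragments per 100 ribosomal protein fragments, against 11.4 to 11.8 in the other 3 libraries. It is the only 405 min library at or under 4% ribosomal share. The cause was not tested in either.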

How the results depend on the processing

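The count of members with an adjusted p under 0.05 stayed at 0 in all alternatives run for the 3 comparisons between times. Against control it was 0 in all but DESeq2, with 3 at 45 min and 3 at 405 min, where it called 9.74% and 13.1% of all genes with an adjusted p.

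The median log2 fold change at 405 against 45 min ranged from -1.06 (without 405 min replicate 4) to -0.38 (without 405 min replicate 3) with each library left out, and came to -0.11 with all 16 libraries in the fit and -0.22 with the GC and length offset. At 405 against 135 min it was 0.58 with all 16 libraries and 0.26 without 135 min replicate 1 (range -0.52 to 0.26 over libraries left out), 0.19 without 405 min replicate 3, which is also the class over 6%. At 135 against 45 min the range was -0.80 to -0.48. Against control at 405 min it was 3.50 with filterByExpr and 3.36 with no filter, which test more members. With the ribosomal share covariate, the medians against control were 0.32, -0.13 and 0.076. The causes were not tested.

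Of 30 named genes, 8 had a value of the other sign when 1 library was left out, over ranges of -0.017 to 3.80 (Ndufv1), -1.10 to 0.34 (Sdhc), -0.53 to 2.33 (Cox4i1), -0.38 to 0.61 (Cox5b), -0.79 to 1.25 (Atp5b), -0.97 to 0.81 (Atp5c1), -0.72 to 0.89 (Atp5o) and -0.55 to 2.25 (Atp5g1). Of the 22 others, 17 had a value that moved by over 1.5 times with 1 library left out. Those that moved most were Cox7b (-3.42 to -0.85), Ndufaf5 (0.66 without 405 min replicate 3), Ndufv2 (-1.58 without 405 min replicate 4, -0.38 without replicate 3) and Cox6c (-2.66 without 405 min replicate 4). Without 45 min replicate 2, Ndufb3 came to -1.29, Ndufa4 to -1.18 and Atp5l to -1.24.

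Same-numbered libraries deviated together with r from -0.76 to 0.60, and 14 of 24 pairs were over 0.1. Between 45 and 135 min, where each number has the same class at both times, r was 0.54, 0.49, 0.54 and 0.54. Replicates 2, 3 and 4 change class at 405 min, and their r between 45 and 405 min was -0.65, 0.41 and -0.76. Class was not separated from number in these values, so they do not decide pairing. The numbers were not taken as pairing. With the replicate block the medians were -0.94, -0.63 and -0.34 (405 against 45, 135 against 45, 405 against 135 min) and 1.35, 0.92 and 2.04 against control, with 0 members called in each. The best match of a library shared its number in 12 of 48 cases. In the 9 libraries at or under 4%, 2 to 47 members had no fragment, against 1 to 17 in the 7, and libraries of like depth differed (7 in control replicate 2 with 861482 fragments, 45 in control replicate 4 with 864864).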
